A study of Mus musculus with 18 samples.

Results

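The liver X receptor (LXR) pathway of mouse bone marrow-derived macrophages was followed through 10 genes, taken by gene name from a table of read counts for 21734 protein-coding genes. They were the receptors Nr1h3 and Nr1h2, the oxysterol-producing enzyme Ch25h, the cholesterol exporters Abca1 and Abcg1, the cholesterol acceptor Apoe, the lipid synthesis genes Srebf1, Scd2 and Lpcat3, and Mylip, which limits cholesterol uptake. Each name matched 1 row, and all 10 were among the 11357 genes that passed the filter on low counts and were tested.

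LXRα (Nr1h3) and LXRβ (Nr1h2) are nuclear receptors that bind oxysterols, the oxidised forms of cholesterol, and sit on DNA as a pair with a retinoid X receptor. When ligand is present they raise genes that load cholesterol onto lipoproteins, that make and remodel fatty acids, and that limit the uptake of more cholesterol. In macrophages this programme protects against sterol overload, while inflammatory signals through Toll-like receptors and interferon are known to alter both the supply of oxysterols and the response of LXR targets.

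The macrophages came from wild-type mice (WT), mice homozygous for a deletion of mir-146a (KO), and mice homozygous for a non-seed swap of the same gene (3F), whose microRNA keeps its seed but carries another 3′ sequence. All mice were of a 129/B6 mixed background and were 6 to 7 months old, with 3 per genotype. Marrow was grown in M-CSF at 10 ng/ml, and cultures were then given fresh medium alone (resting) or fresh medium holding 1 ng/ml lipopolysaccharide (LPS), a bacterial cell wall component that activates TLR4, for 16 h. The 6 groups held 3 libraries each. The KO lacks the microRNA in every cell from conception, and each mutant line descends from its own embryonic stem cell clone and was kept as a separate colony, so that allele and line cannot be told apart.

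Library totals ran from 4071084 to 19818043 counts, and levels are given below as CPM, counts per 1000000 of scaled library size. All 8 macrophage markers were detected in every group, with a summed level of 32570 to 88340 CPM. Most of this was Lyz2, with group means of 35160 to 65090 CPM. Markers of T, B and NK cells summed to 0.936 CPM or less and those of dendritic cells to 4.45 CPM or less. Those of stromal cells, erythroid cells and adipocytes summed to at most 5.213, 1.405 and 0.4327 CPM. A pair of resting libraries stood apart. KO resting replicate 3 lay at -19.7 on the first principal component of all tested genes, where the other resting libraries lay between 28.2 and 62.4 and the LPS libraries between -70.6 and -17.4. 3F resting replicate 3 was the shallowest library and lay at -50.3 on the second component, beyond all others. The 8 neutrophil markers summed to 53.3 CPM in the former and 66.5 CPM in the latter, against 13.7 to 28.0 CPM in the other 7 resting libraries. S100a8 alone gave 48.3 CPM of the former sum and 44.0 CPM of the latter. Ly6g, another of the 8, had no count in any resting library, and the part of these markers in the results was not tested. For KO resting replicate 3 a fault of the sample and a property of that culture cannot be told apart, and results that rest on it are given with and without it. Since RNA was measured in bulk, fewer cells of a type and less RNA per cell cannot be told apart.

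The WT and 3F alleles differ in the mature microRNA, so both strands are shown, with the shared seed (bases 2 to 8) in capitals. The first is the RefSeq sequence at chr11:43374435-43374456 (minus strand, GRCm38.p6), and the second is the strand of the mimic designed for the 3F allele. The mimic strand is given over 20 bases only. The last bases of the mature microRNA are not shown for 3F, and the paper states that they were kept.
Wild-type miR-146a-5p: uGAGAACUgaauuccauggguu
3F miR-146a-5p: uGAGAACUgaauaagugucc
Over the 20 bases compared, 8 differed, all between positions 13 and 20. None of the 10 members holds a match to seed bases 2 to 8 in its longest annotated 3′ UTR, whereas 11.9% of 20803 genes do. A shorter match of 6 bases was found in Abca1 alone, and 31.4% of genes hold at least that much.

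LPS raised the exporter Abca1 in all 3 genotypes and lowered Mylip in all 3. In WT macrophages, 3 of 10 members passed the test (Nr1h3 and Abca1 higher, Mylip lower), where 28.5% of all tested genes did. In KO macrophages 4 of 10 passed (Abca1, Scd2 and Lpcat3 higher, Mylip lower), against 26.9% of all tested genes. In 3F macrophages 5 of 10 passed (Nr1h3, Abca1, Scd2 and Lpcat3 higher, Mylip lower), against 31.2%. With 10 members these counts lie close to the background shares, and nothing particular to the members is read from them. In this fit, which holds no replicate block, Nr1h2, Ch25h, Abcg1, Apoe and Srebf1 passed in no genotype. Scaled by library totals alone, which put the median LPS difference of all genes at -0.24, -0.26 and -0.21 on the log2 scale in WT, KO and 3F, 5 of these calls were lost. They were Abca1 (0.64, adjusted p = 0.0628), Scd2 (0.74, 0.0691) and Lpcat3 (0.22, 0.298) in KO and Scd2 (0.69, 0.0853) and Lpcat3 (0.38, 0.0752) in 3F. With that scaling Nr1h2 (-0.47, 0.0358) and Srebf1 (-0.39, 0.015) passed as lower after LPS in KO. A gene was said to pass when its adjusted p was under 0.05 in an edgeR quasi-likelihood test of all 18 libraries, adjusted by Benjamini-Hochberg over all tested genes. With a term for genotype and replicate number together, Nr1h3 and Ch25h also passed as higher in KO. In 3F, Ch25h then passed as higher and Apoe as lower.

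**Figure D1:**
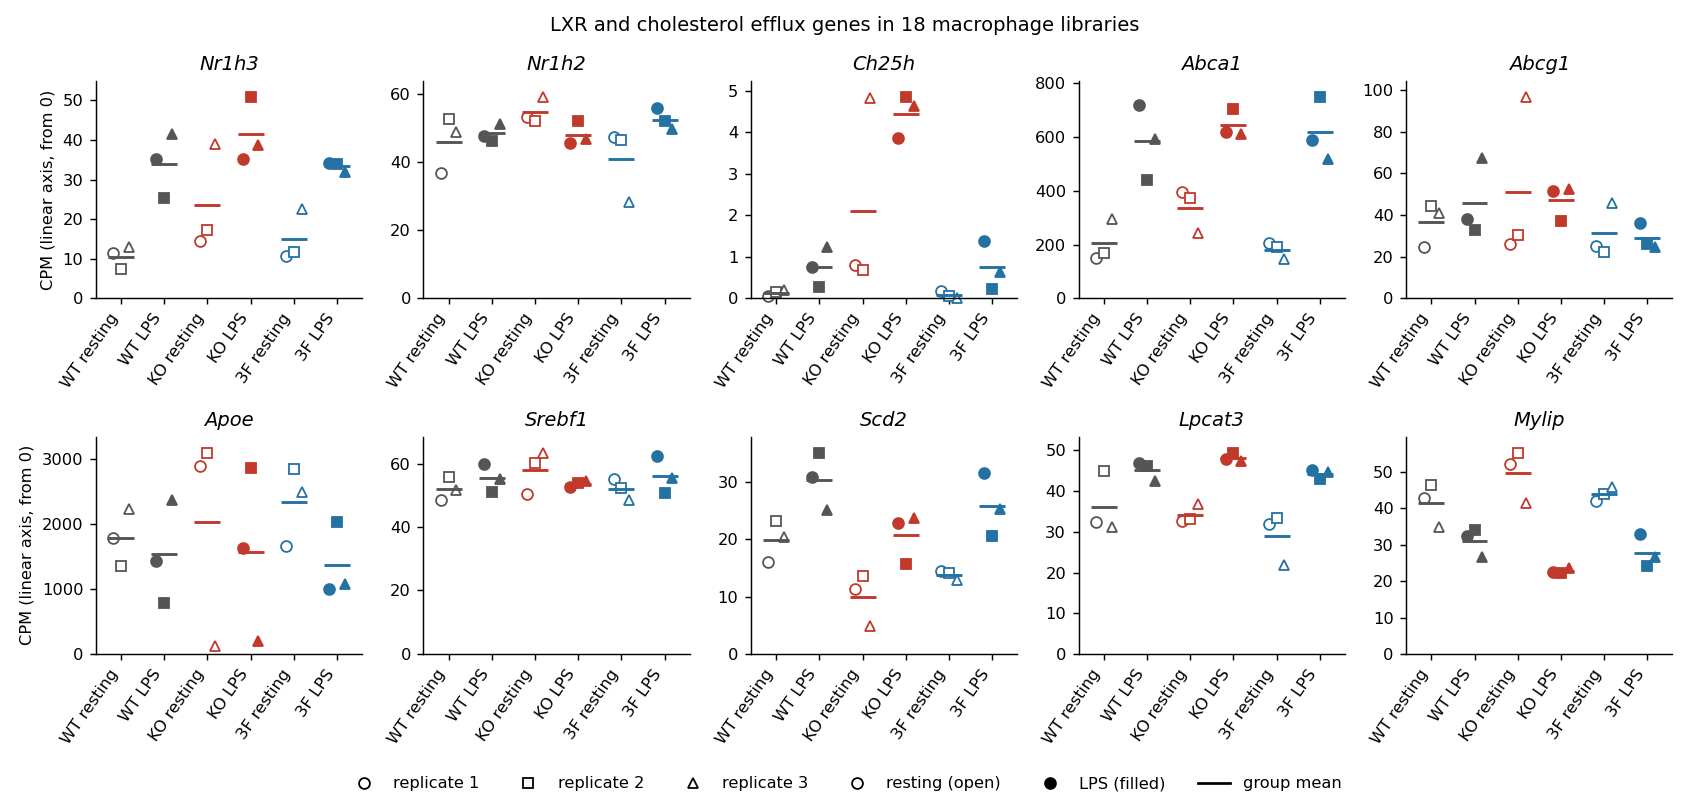
Level of each of the 10 genes in CPM (vertical axes, linear and starting at 0, a different range per gene) in the 6 groups (horizontal axes). Each symbol is 1 library, its shape gives the replicate number, open symbols are resting and filled symbols LPS, and the bar is the mean of 3 libraries. The Abca1 LPS libraries all lie above the resting ones, and Apoe in both KO libraries numbered 3 lies near the axis, at 121 and 204 CPM.

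Between genotypes the member with the largest fold was Ch25h, which was higher in KO than in either other genotype, in both states. At rest, 3 of 10 members passed between KO and WT (Ch25h and Nr1h3 higher in KO, Scd2 lower), where 9.4% of all tested genes did. After LPS, Ch25h alone passed, 1 of 10 against 4.79%. Between KO and 3F, 2 of 10 passed at rest (Ch25h and Abca1, both higher in KO, against 12.9%) and 1 of 10 after LPS (Ch25h again, against 3.88%). Both sets of comparisons share the KO libraries. Between 3F and WT, 0 of 10 passed at rest, where 0% of genes did in the edgeR test (557 of 11357 had an unadjusted p under 0.05, 0 of them a call), and 0 of 10 passed after LPS, where 0.00881% of genes did (106 had an unadjusted p under 0.05). DESeq2 called 2 and 2 genes in these comparisons and limma-voom with quality weights 2 and 1, and in both tools 0 of 10 members passed. A test of whether the LPS response of KO or 3F differed from that of WT was passed by 0 of 10 members in each case, with backgrounds of 0.00881% for KO (560 genes at an unadjusted p under 0.05) and 0% for 3F (203 genes). DESeq2 also called 0 of 10 in each, and limma-voom with quality weights called 1 of 10 for KO (Mylip) and 0 of 10 for 3F.

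**Figure D2:**
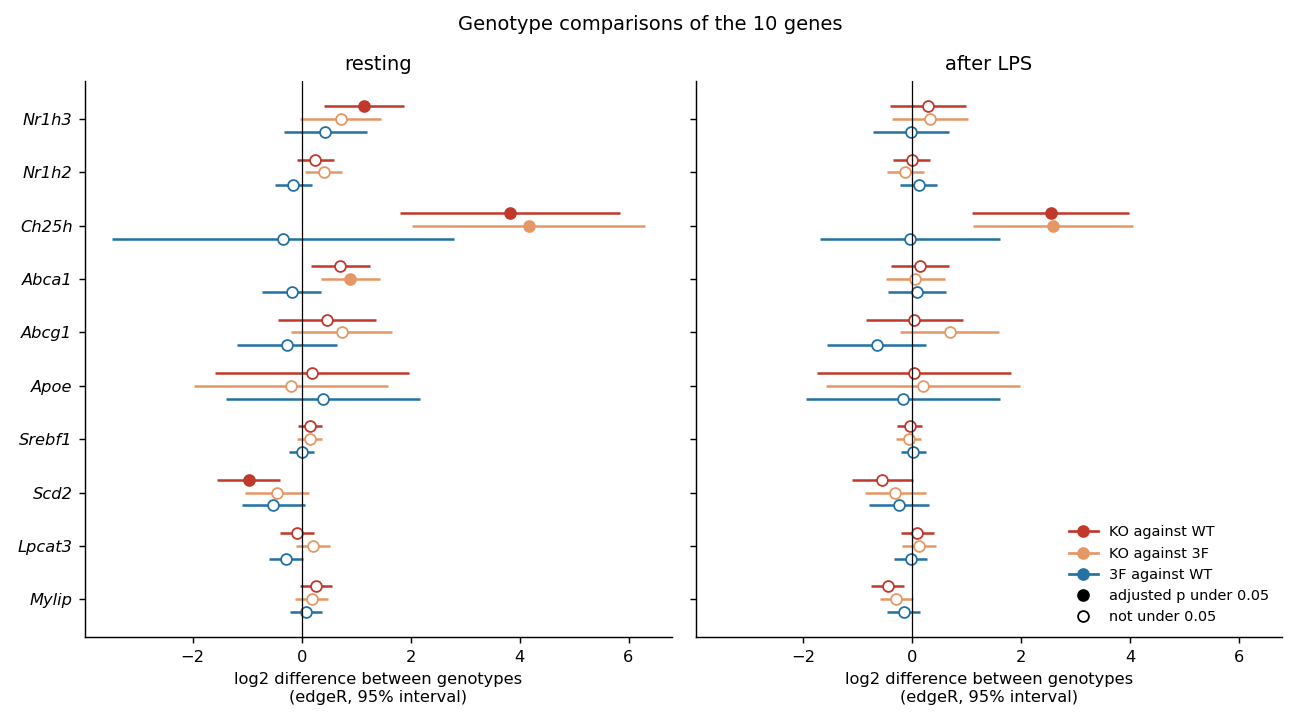
Difference in log2 level between genotypes at rest (left) and after LPS (right), with 1 row per gene. Points are edgeR estimates with 95% confidence intervals, colours name the pair of genotypes, and filled points had an adjusted p under 0.05. The KO points of Ch25h lie furthest from 0, at 3.83 and 4.17 at rest, and no point for 3F against WT is filled.

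The receptor LXRα, Nr1h3 (ENSMUSG00000002108, chr2:91184061-91202834, minus strand), was higher after LPS. Its level was 11.5, 7.30 and 12.9 CPM in the WT resting libraries and 35.1, 25.4 and 41.5 CPM in the WT LPS libraries. In 3F it was 10.6, 11.8 and 22.5 CPM at rest and 34.3, 33.9 and 31.8 CPM after LPS. In neither genotype did the states overlap, and the edgeR difference was 1.69 ± 0.347 on the log2 scale (SE, adjusted p = 0.00181) in WT, a 3.23-fold rise, and 1.23 ± 0.349 (adjusted p = 0.0138) in 3F, a 2.35-fold rise. The 3F call was lost without 3F resting replicate 1 (1.03, adjusted p = 0.0591) or replicate 2 (1.09, adjusted p = 0.056).

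In KO macrophages Nr1h3 was at 14.5, 17.4 and 39.1 CPM at rest and at 35.3, 50.8 and 38.8 CPM after LPS. KO resting replicate 3 was thus as high as the LPS libraries, while the other KO resting libraries stayed below all of them. With all libraries the KO response was 0.84 ± 0.333 (adjusted p = 0.0748), which passed with a replicate block, and without KO resting replicate 3 it was 1.39 (adjusted p = 0.00134). The same library entered the resting difference between KO and WT, which was 1.15 ± 0.349 (adjusted p = 0.0493), a 2.22-fold higher mean in KO with no overlap. Without KO resting replicate 3 the difference was 0.60 (adjusted p = 0.253), and the call was also lost without WT resting replicate 1 (1.22, adjusted p = 0.106), replicate 2 (0.94, 0.186) or replicate 3 (1.31, 0.0687). After LPS the KO and WT libraries overlapped, with a difference of 0.29 ± 0.327 (adjusted p = 0.714).

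The second receptor, LXRβ, encoded by Nr1h2 (ENSMUSG00000060601, chr7:44549616-44553951, minus strand), varied 2.09-fold between the lowest and the highest library. It was at 36.8, 52.6 and 48.8 CPM in WT resting libraries and 47.9, 46.4 and 51.3 CPM in WT LPS libraries. KO libraries held 53.5, 52.1 and 59.2 CPM at rest and 45.6, 52.1 and 46.8 CPM after LPS, and 3F libraries 47.5, 46.7 and 28.3 CPM at rest and 55.9, 52.1 and 49.8 CPM after LPS. The lowest value, 28.3 CPM, belonged to the shallow 3F resting replicate 3. The LPS differences were 0.08 ± 0.16 in WT, -0.19 ± 0.16 in KO and 0.34 ± 0.161 in 3F, with adjusted p of 0.773, 0.414 and 0.115. Per kb of annotated exon, a scale for comparing genes that depends on the length used, the resting WT level was 13.7 ± 2.47 CPM per kb for Nr1h2 and 4.20 ± 1.15 CPM per kb for Nr1h3 (SD, n = 3). After LPS the WT levels were 14.5 ± 0.751 and 13.5 ± 3.22 CPM per kb. The lengths used were 3354 bases for Nr1h2 and 2515 for Nr1h3. Those given with the counts were 2557 and 2149, so how near the receptors lie depends on the length chosen.

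Ch25h (ENSMUSG00000050370, chr19:34473778-34475164, minus strand) encodes cholesterol 25-hydroxylase, which makes the oxysterol 25-hydroxycholesterol and is known as an interferon-stimulated gene. It was scarce in WT and 3F macrophages and present in every KO library. The counts were 1, 2 and 2 in the WT resting libraries, 3, 1 and 0 in the 3F resting libraries, and 13, 9 and 43 in the KO resting libraries. In CPM the KO resting libraries held 0.804, 0.688 and 4.83, and every library of WT and 3F at rest was under 0.2 CPM. With the counts of each group pooled, the level in resting KO was 13.2 times that in WT (95% interval 5.39 to 42.1) and 16.7 times that in 3F (6.22 to 63.2), where the intervals are exact and cover counting error only. Without KO resting replicate 3 these ratios were 5.84 (2.16 to 19.8) and 7.38 (2.51 to 29.5).

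The edgeR difference of Ch25h at rest was 3.83 ± 0.953 against WT (adjusted p = 0.019) and 4.17 ± 1.01 against 3F (adjusted p = 0.016), values that depend on the small prior count the fit adds to groups so near 0. Neither call held without KO resting replicate 3, where the differences were 2.45 (adjusted p = 0.0896) and 2.79 (adjusted p = 0.0585). The call against WT was lost as well without WT resting replicate 1 (3.46, adjusted p = 0.0847) or replicate 2 (3.95, 0.0717), and the call against 3F without 3F resting replicate 2 (3.80, 0.0518). In none of these did a KO library overlap the other genotypes.

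After LPS, the KO libraries held Ch25h at 3.86, 4.85 and 4.64 CPM (56, 67 and 65 counts). The WT libraries held 0.768, 0.273 and 1.25 CPM (11, 4 and 17 counts) and the 3F libraries 1.39, 0.219 and 0.641 CPM (19, 4 and 5 counts). The 3 KO libraries were close to each other and all lay above both other genotypes. Pooled over libraries the ratio was 5.91 against WT (4.05 to 8.89) and 6.29 against 3F (4.22 to 9.73). The edgeR difference was 2.54 ± 0.68 against WT (adjusted p = 0.0421) and 2.59 ± 0.696 against 3F (adjusted p = 0.0489). Both lay so near the threshold that leaving out any 1 of the 6 libraries compared ended the call, with differences of 2.14 to 3.08 against WT (adjusted p from 0.0524 to 0.206) and of 2.05 to 3.56 against 3F (adjusted p from 0.0551 to 0.164).

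The LPS response of Ch25h itself did not pass in any genotype with all libraries and no replicate block, and it passed in KO and 3F with a term for genotype and replicate number together. The differences were 2.46 ± 1.04 in WT (adjusted p = 0.0895), 1.18 ± 0.63 in KO (0.185) and 2.76 ± 1.12 in 3F (0.071), although the WT and the 3F libraries did not overlap between states. The pooled LPS to resting ratio was 5.83 in WT (2.26 to 19.2) and 6.92 in 3F (2.42 to 27.1). Without KO resting replicate 3 the KO response was 2.55 (adjusted p = 0.00202), and without 3F LPS replicate 2 the 3F response passed (3.29, adjusted p = 0.0401). DESeq2 called it in WT (2.50, adjusted p = 0.0381) and 3F (2.90, 0.0235). The 8 neutrophil markers summed to 38.7 to 67.1 CPM in KO after LPS, 33.0 to 40.8 CPM in WT and 28.4 to 33.5 CPM in 3F. Most of this was S100a8, with means of 37.8, 23.3 and 22.4 CPM in KO, WT and 3F. Of the others, S100a9, Camp and Ltf had higher means in KO than in WT, and Ngp, Mpo and Elane lower ones. The part of these markers in the genotype difference was not tested.

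Abca1 (ENSMUSG00000015243, chr4:53030787-53159895, minus strand) encodes the transporter that hands cholesterol and phospholipid to lipid-poor apolipoproteins. It rose with LPS in each genotype. Levels were 150.9, 170.2 and 296.9 CPM in WT at rest and 721, 439 and 593 CPM after LPS. In 3F they were 204, 193 and 145 CPM at rest and 588, 749 and 520 CPM after LPS, and in KO 395, 374 and 242 CPM at rest and 619, 706 and 610 CPM after LPS. In each genotype all 3 LPS libraries exceeded all 3 resting ones.

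The rise of Abca1 was 1.51 ± 0.259 on the log2 scale in WT (2.84-fold, adjusted p = 0.00045), 0.94 ± 0.255 in KO (1.91-fold, adjusted p = 0.0119) and 1.77 ± 0.261 in 3F (3.42-fold, adjusted p = 0.000108). The KO rise was lost without KO LPS replicate 2 (0.81, adjusted p = 0.0703), and it was 0.78 (adjusted p = 0.0535) without both KO libraries numbered 3. The mean levels after LPS were 645 ± 53.1 CPM in KO, 619 ± 118 in 3F and 584 ± 141 in WT, and all 3 overlapped. At rest the KO libraries were higher than those of 3F with no overlap (0.90 ± 0.256, adjusted p = 0.0319), while the difference from WT was 0.71 ± 0.255 with overlap (adjusted p = 0.0937). Single libraries decided both calls. The difference from 3F was lost without 3F resting replicate 3 (0.78, adjusted p = 0.119) or replicate 2 (0.95, 0.0514) and without KO resting replicate 1 (0.77, 0.0943) or replicate 2 (0.81, 0.0742), and that from WT passed without KO resting replicate 3 (0.90, 0.0426) or WT resting replicate 3 (1.07, 0.0196).

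The promoters of Abca1 and Srebf1 are shown because both genes are textbook LXR targets, of which Abca1 rose with LPS in each genotype and Srebf1 passed in no comparison. RefSeq windows of 300 bases (250 before the start, 50 after, GRCm38.p6) were found for 8 of the members, 13 windows in all. They were searched on both strands for AGGTCA, the core hexamer of nuclear receptor sites, and for 2 copies of it spaced by 4 bases, the DR4 element bound by LXR with its partner. With up to 3 mismatches in the 12 letters, DR4 was found in 2 of the 13 windows, and 21.9% of 32851 promoters hold it at that tolerance. The planned search allowed at most 2 mismatches, and the wider tolerance was added to it. The 250 bases before the start are given 5′ to 3′ on the gene's strand, with the element in capitals, for Abca1 at chr4:53159896-53160145 and for 1 start of Srebf1 at chr11:60210472-60210721, both on the minus strand.
Abca1: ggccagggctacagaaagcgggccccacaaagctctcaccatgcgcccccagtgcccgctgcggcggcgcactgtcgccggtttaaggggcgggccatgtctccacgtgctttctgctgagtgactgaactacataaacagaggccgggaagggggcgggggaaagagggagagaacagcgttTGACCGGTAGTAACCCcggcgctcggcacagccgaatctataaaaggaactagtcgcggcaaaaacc
Srebf1: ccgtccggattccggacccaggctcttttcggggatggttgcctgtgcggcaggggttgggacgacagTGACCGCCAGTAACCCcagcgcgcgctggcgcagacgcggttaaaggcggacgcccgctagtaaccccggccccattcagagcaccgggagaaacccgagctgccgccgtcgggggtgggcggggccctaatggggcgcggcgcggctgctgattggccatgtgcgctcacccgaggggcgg
Read on the opposite strand with the hexamers in capitals, the elements were as follows.
Abca1 element: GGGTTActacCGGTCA
Srebf1 element: GGGTTActggCGGTCA
The hexamers were identical in 12 of 12 letters, and the elements in 14 of 16. They began 67 bases before the start in Abca1 and 182 bases before it in Srebf1. With at most 2 mismatches no member window held DR4 (3.02% of all promoters do), and none held an exact AGGTCA (16.3%), the sterol regulatory element TCACNCCAC (1.24%) or GAAA repeated after 2 bases, the core of the interferon response element (3.44%).

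Abcg1 (ENSMUSG00000024030, chr17:31057675-31117988, plus strand) encodes the transporter that passes cholesterol to mature HDL. It did not follow Abca1. Its level was 24.8, 44.4 and 40.9 CPM in WT at rest and 38.0, 32.6 and 67.4 CPM after LPS, and in 3F it was 25.4, 22.5 and 45.9 CPM at rest and 36.3, 26.2 and 24.9 CPM after LPS. KO held 26.2, 30.4 and 96.7 CPM at rest and 51.7, 37.1 and 52.8 CPM after LPS. The highest of all 18 libraries was KO resting replicate 3, at 3.41 times the mean of the other KO resting libraries, and the states overlapped in every genotype. The LPS differences were 0.33 ± 0.425 in WT, -0.10 ± 0.424 in KO and -0.06 ± 0.438 in 3F (adjusted p of 0.616, 0.891 and 0.936). Without KO resting replicate 3 the KO difference was 0.74 (adjusted p = 0.105), so that its sign rested on this library.

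Apoe (ENSMUSG00000002985, chr7:19696109-19699188, minus strand) encodes apolipoprotein E, a secreted cholesterol acceptor that macrophages make in quantity. It was the most abundant member per length, at 836 ± 205 CPM per kb in resting WT against 19.9 ± 7.65 CPM per kb for Abca1. Levels in WT were 1791, 1347 and 2225 CPM at rest and 1432, 784 and 2377 CPM after LPS, and those in 3F were 1669, 2846 and 2494 CPM at rest and 996, 2033 and 1070 CPM after LPS. In KO they were 2897, 3098 and 121 CPM at rest and 1629, 2856 and 204 CPM after LPS. Both libraries numbered KO replicate 3 were far below the 784 to 3098 CPM of the other 16 libraries. KO replicate 3 was 24.9 times lower than the mean of the other KO libraries at rest and 11 times lower after LPS.

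With that spread no comparison of Apoe passed without a replicate block, and its 3F response alone passed, as lower after LPS, with a term for genotype and number together. The LPS differences were -0.22 ± 0.84 in WT, -0.38 ± 0.841 in KO and -0.77 ± 0.844 in 3F, with adjusted p between 0.512 and 0.879, and the 95% interval in 3F ran from -2.56 to 1.02. Leaving out both KO libraries numbered 3, Apoe in KO against WT was 0.75 at rest (adjusted p = 0.329) and 0.55 after LPS (adjusted p = 0.5). All 8 macrophage markers were detected in the KO resting group, but some spread widely within it, Fcgr1 from 205.7 to 1136 CPM and Mrc1 from 175.9 to 799 CPM, and their part in the Apoe levels was not tested.

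Srebf1 (ENSMUSG00000020538, chr11:60199089-60222581, minus strand) encodes SREBP-1, the activator of fatty acid synthesis genes. It was the steadiest member, between 48.5 and 63.4 CPM in all 18 libraries, a 1.31-fold range. WT libraries held 48.7, 55.8 and 51.6 CPM at rest and 60.0, 51.2 and 55.1 CPM after LPS. KO libraries held 50.3, 60.1 and 63.4 CPM at rest and 52.5, 53.7 and 54.6 CPM after LPS, and 3F libraries 55.03, 52.3 and 48.5 CPM at rest and 62.5, 50.6 and 55.4 CPM after LPS. The states overlapped in every genotype. The LPS differences were 0.09 ± 0.107 in WT, -0.11 ± 0.107 in KO and 0.11 ± 0.108 in 3F, and the 95% intervals lay within -0.34 and 0.34. Srebf1 passed in none of the 11 comparisons, although with library totals alone its LPS difference in KO was -0.39 (adjusted p = 0.015). Its DR4 hexamers, identical to those of Abca1, lay before only 1 of its annotated starts. Counts per gene cannot tell the starts apart, so nothing on the element is read from them.

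Scd2 (ENSMUSG00000025203, chr19:44293674-44306864, plus strand) encodes a stearoyl-CoA desaturase, which puts the double bond into saturated fatty acids. It was at 16.1, 23.1 and 20.4 CPM in WT at rest and 30.8, 35.1 and 25.1 CPM after LPS. KO libraries held 11.4, 13.5 and 4.94 CPM at rest and 22.9, 15.6 and 23.7 CPM after LPS, and 3F libraries 14.4, 14.1 and 12.9 CPM at rest and 31.5, 20.5 and 25.3 CPM after LPS. The states did not overlap in any genotype. The LPS difference was 0.61 ± 0.263 in WT (adjusted p = 0.0953), 1.04 ± 0.273 in KO (2.05-fold, adjusted p = 0.00972) and 0.89 ± 0.272 in 3F (1.85-fold, adjusted p = 0.0208).

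In 3F the Scd2 call was lost without 3F resting replicate 3 (0.81, adjusted p = 0.0658) or 3F LPS replicate 1 (0.71, 0.0947), and in KO without both libraries numbered 3 (0.63, 0.0562). At rest Scd2 was lower in KO than in WT by 0.97 ± 0.274 on the log2 scale (1.96-fold, adjusted p = 0.0356), with no overlap. The difference fell short without KO resting replicate 3 (-0.67, adjusted p = 0.0793), KO resting replicate 1 (-1.07, 0.0512), WT resting replicate 2 (-0.85, 0.132) or WT resting replicate 3 (-0.95, 0.0813). The resting 3F libraries also lay below those of WT without overlap, at a difference of -0.52 ± 0.272 (adjusted p = 0.843).

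Lpcat3 (ENSMUSG00000004270, chr6:124663027-124704418, plus strand) encodes an acyltransferase that places polyunsaturated fatty acids into phospholipids. WT libraries were at 32.3, 45.0 and 31.1 CPM at rest and at 46.8, 46.1 and 42.6 CPM after LPS. KO was at 32.6, 33.2 and 36.8 CPM at rest and 47.9, 49.5 and 47.4 CPM after LPS, and 3F at 32, 33.3 and 21.8 CPM at rest and 45.1, 42.9 and 44.6 CPM after LPS. The states overlapped in WT through replicate 2 at rest, and not in KO or 3F. The rise was 0.50 ± 0.145 in KO (1.41-fold, adjusted p = 0.0175) and 0.58 ± 0.147 in 3F (1.5-fold, adjusted p = 0.00676), and the WT difference was 0.32 ± 0.145 (adjusted p = 0.112). Without WT resting replicate 3 the WT difference was 0.23 and without WT resting replicate 2 it was 0.51 and passed (adjusted p = 0.0169). In KO the call was lost without KO resting replicate 1 (0.46, adjusted p = 0.0685), replicate 2 (0.48, 0.0601) or KO LPS replicate 2 (0.43, 0.0923), and with no filter on low counts (0.44, 0.0673).

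Mylip (ENSMUSG00000038175, chr13:45389742-45412022, plus strand) encodes the ubiquitin ligase, also called IDOL, that limits cholesterol uptake, and it fell with LPS in each genotype. Levels at rest were 42.8, 46.5 and 34.9 CPM in WT, 52.3, 55.3 and 41.5 CPM in KO, and 42.0, 43.9 and 45.9 CPM in 3F. After LPS they were 32.5, 34.1 and 26.5 CPM in WT, 22.4, 22.2 and 23.7 CPM in KO, and 32.8, 24.1 and 26.6 CPM in 3F. The states did not overlap in any genotype, and the 3 KO LPS libraries lay below all others. Mylip fell by 1.13 ± 0.144 on the log2 scale in KO (2.19-fold, adjusted p = 2.59e-05), by 0.66 ± 0.144 in 3F (1.57-fold, adjusted p = 0.00271) and by 0.42 ± 0.142 in WT (1.33-fold, adjusted p = 0.0377).

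The WT call of Mylip was lost without WT resting replicate 1 (-0.39, adjusted p = 0.0881) or replicate 2 (-0.32, 0.157) and without WT LPS replicate 1 (-0.45, 0.0665) or replicate 3 (-0.32, 0.172). The KO and 3F calls held without any 1 library, over -1.24 to -1.05 and -0.79 to -0.56. Of the 10 members, Mylip came nearest to a genotype difference in its LPS response: the KO response was lower than that of WT by 0.71 ± 0.201 (unadjusted p = 0.00268), which did not pass over all genes (adjusted p = 0.507). After LPS the KO level differed from WT by -0.45 ± 0.143 (adjusted p = 0.0847), again short of the threshold. It passed with the compared groups alone (-0.47, adjusted p = 0.0439), with DESeq2 (-0.46, 0.0479) and with limma-voom quality weights (-0.45, 0.021), and in the other alternatives the adjusted p ran from 0.0524 to 0.335.

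**Figure D3:**
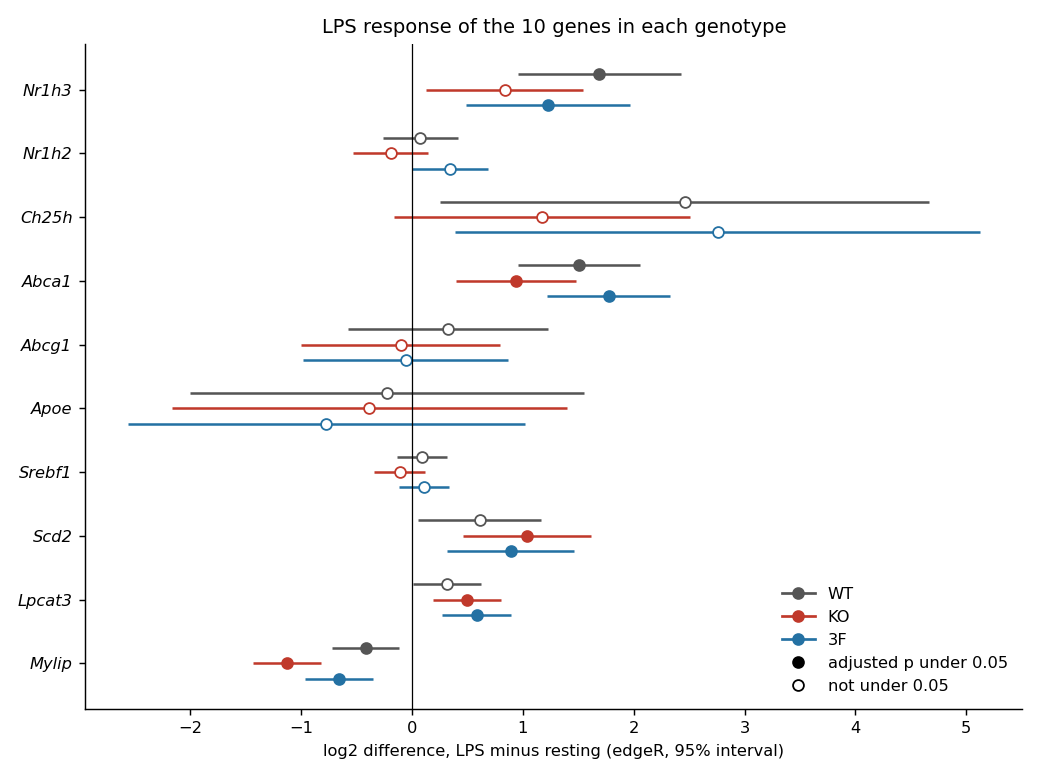
LPS response of the 10 genes, as the difference in log2 level between LPS and resting libraries (horizontal axis), in WT, KO and 3F. Points are edgeR estimates, lines their 95% confidence intervals, and filled points had an adjusted p under 0.05. Abca1 lies to the right of 0 and Mylip to the left in all 3 genotypes, and the widest intervals are those of Ch25h and Apoe.

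Across the 10 genes, KO resting replicate 3 lay outside the range of the other KO resting libraries every time, above in 6 genes and below in 4. It was higher in Nr1h3, Ch25h and Abcg1 and lower in Apoe, Scd2 and Abca1, by factors of 2.46, 6.47, 3.41, 24.9, 2.52 and 1.59. Its partner by number after LPS lay within or close to the other KO LPS libraries in 9 genes, with ratios of 0.901 to 1.23 to their mean, and apart in Apoe. Of the KO against WT calls at rest, all 3 (Ch25h, Nr1h3 and Scd2) were lost without it. Neutrophil markers summed to 53.3 CPM there, 48.3 CPM of it S100a8, against 15.7 and 28.0 CPM in the other KO resting libraries. Their part was not tested.

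**Figure D4:**
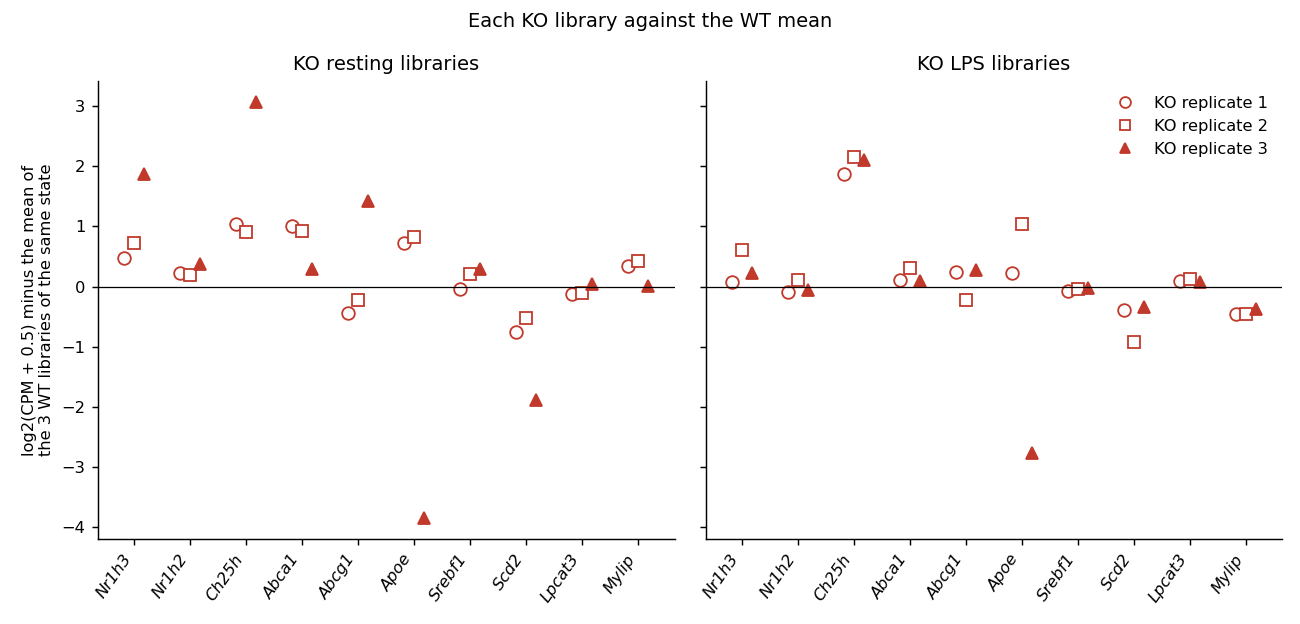
Each KO library against the mean of the 3 WT libraries of the same state, as a difference of log2(CPM + 0.5) (vertical axis), for the 10 genes, at rest (left) and after LPS (right). Filled triangles are replicate 3. At rest the triangles lie apart from the other symbols for Nr1h3, Ch25h, Abcg1, Apoe and Scd2, and after LPS for Apoe.

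Other genes of the pathway were counted in 4 lists. They gave 42 calls over the comparisons, of which 17 held without any 1 library and 25 were lost without at least 1. Of all tested genes, 0% to 31.2% were called, depending on the comparison. How many calls of all genes hold without any 1 library was not counted. Nothing particular to the lists is read from these totals. Of 7 RXR partners and coregulators, all tested, LPS lowered 2 in WT, 1 in KO and 2 in 3F, and raised 1 in 3F, where 28.5%, 26.9% and 31.2% of all tested genes were called in WT, KO and 3F, so nothing particular to the list is read from these counts. Their median difference was -0.12 in WT, -0.21 in KO and 0.19 in 3F, against 0.02, 0.02 and -0.01 over all genes. Rxra, the retinoid X receptor α that pairs with LXR, fell in each genotype, by 0.56 in WT (adjusted p = 0.00735), 0.83 in KO (0.000393) and 0.41 in 3F (0.0349). Rxrb fell by 0.36 in WT (adjusted p = 0.0377) and 0.36 in 3F (0.0349). Med1, a mediator subunit that binds nuclear receptors, rose by 0.39 in 3F (adjusted p = 0.043). No gene of the list passed in a comparison of genotypes. The Rxra calls in WT and KO held without any 1 library, and the others of this list were each lost without at least 4 of the 6 libraries compared (Rxra in 3F over -0.59 to -0.27, Rxrb over -0.48 to -0.27 in WT and -0.42 to -0.30 in 3F, Med1 over 0.18 to 0.55). With library totals alone the Med1 difference was 0.19 (adjusted p = 0.354).

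Of 15 other LXR target genes 13 were tested, Apoc1 and Apoc2 being too low. With LPS, 1 rose and 1 fell in WT, 0 rose and 1 fell in KO, and 1 rose and 1 fell in 3F, against the same 28.5%, 26.9% and 31.2% of all genes. The medians were 0.06, 0.23 and -0.04. Arl4c, a small GTPase, fell from 127.7 ± 6.83 to 33.1 ± 2.12 CPM in WT (SD, n = 3), a log2 difference of -1.95 (adjusted p = 1.18e-07). In KO the Arl4c difference was -2.67 (adjusted p = 5.27e-09) and in 3F -1.91 (1.28e-07). Tgm2, a transglutaminase, rose in WT (0.76, adjusted p = 0.0162) and 3F (0.97, 0.00341). The direction of Arl4c was thus opposite to that of Abca1 in the same libraries, and its LPS calls held without any 1 library. Tgm2 in WT was lost without WT resting replicate 2 (0.61, adjusted p = 0.0831) or WT LPS replicate 1 (0.60, 0.0848) and with library totals alone (0.50, 0.0742), while in 3F it held without any 1 library.

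At rest KO differed from WT in 2 of these 13 genes, and from 3F in 6 (2 with more and 4 with less in KO), where 9.4% and 12.9% of all tested genes were called. The medians were -0.42 and -0.18, against 0.02 and 0.01 over all genes. Scd1, the desaturase related to Scd2, averaged 0.670 ± 0.329 CPM in KO against 3.48 ± 0.746 in WT and 2.67 ± 0.580 in 3F, differences of -2.31 (adjusted p = 0.00423) and -1.91 (0.0132). Tgm2 was higher in KO by 0.92 against WT (adjusted p = 0.0153) and by 0.95 against 3F (0.0131). Cd5l, a scavenger-like secreted protein, was lower in KO than in 3F by 1.34 (adjusted p = 0.016), and Acsl3, an acyl-CoA synthetase, by 0.87 (0.0461). The calls of Scd1 held without any 1 library, KO resting replicate 3 included (ranges of -2.66 to -2.07 against WT and -2.26 to -1.67 against 3F). Tgm2 lost its call against WT without WT resting replicate 2 (0.77, adjusted p = 0.0819) and against 3F without 3F resting replicate 3 (0.80, 0.0513). Cd5l lost its call without KO resting replicate 1 (-1.09, adjusted p = 0.0538) or 3F resting replicate 3 (-1.07, 0.0642). Acsl3 lost its call without KO resting replicate 3 (-0.52, adjusted p = 0.058), 3F resting replicate 2 (-0.88, 0.0707) or 3F resting replicate 3 (-0.75, 0.149), and with library totals alone (-0.89, 0.0567). After LPS the list held no call between KO and WT and 2 between KO and 3F (3.88% of all genes), Mertk higher (0.95, adjusted p = 0.0477) and Lpl lower (-0.76, 0.0464), lost without 5 and 6 of the 6 libraries compared (adjusted p up to 0.205 and 0.155). With library totals alone the Mertk difference was 0.83 (adjusted p = 0.0665).

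Of 12 genes of sterol traffic and oxysterol enzymes 11 were tested, Cyp7b1 being too low. LPS lowered 4 and raised 1 in WT, lowered 6 in KO and lowered 3 in 3F, against 28.5%, 26.9% and 31.2% of all genes. The medians were -0.28, -0.44 and -0.26. Cyp27a1, the mitochondrial sterol 27-hydroxylase that makes another LXR ligand, fell in every genotype, by 1.07 in WT (adjusted p = 0.000579), 1.22 in KO (0.000146) and 1.17 in 3F (0.000376). Nceh1, a cholesteryl ester hydrolase, fell by 1.02, 1.37 and 1.04 (adjusted p = 8.19e-05, 3.79e-06 and 6.02e-05). Gramd1b and Npc1, which move cholesterol out of membranes and lysosomes, fell in WT, by 0.71 (adjusted p = 0.0194) and 0.66 (0.0214), and in KO, by 0.83 (0.00813) and 0.81 (0.00696), and their 3F differences were -0.35 (0.212) and -0.41 (0.136). The LPS calls of Cyp27a1 and Nceh1 held without any 1 library in each genotype, and that of Npc1 in KO, while Gramd1b in KO was lost without KO resting replicate 2 (-0.66, adjusted p = 0.0503). In WT the Gramd1b call was lost without WT resting replicate 2, WT resting replicate 3 or WT LPS replicate 3, and the Npc1 call without WT resting replicate 2, WT LPS replicate 1 or WT LPS replicate 3 (adjusted p up to 0.0902 and 0.111).

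At rest Cyp27a1 was at 25.1 ± 2.40 CPM in KO against 16.5 ± 0.488 in WT (0.61, adjusted p = 0.0451) and 13.5 ± 1.10 in 3F (0.90, adjusted p = 0.00851), and it was the 1 gene of this list that passed in either comparison (9.4% and 12.9% of all genes did). The Cyp27a1 difference from 3F held without any 1 library (0.84 to 0.97), and that from WT, just inside the threshold, was lost without 5 of the 6 (0.55 to 0.68, adjusted p up to 0.129), and not without KO resting replicate 3. With library totals alone it was 0.51 (adjusted p = 0.0724). In the same comparisons with all libraries the other oxysterol-producing enzyme, Ch25h, was higher in KO as well, while with LPS Cyp27a1 fell and the Ch25h estimates were positive in each genotype without passing. After LPS, Nceh1 was lower in KO than in WT (-0.58, adjusted p = 0.0292), 1 of 11 genes against 4.79% of all genes. Against 3F after LPS, Cyp27a1 was higher in KO (0.86, adjusted p = 0.0229) and Gramd1b lower (-0.94, 0.0224), 2 of 11 against 3.88%. These 3 calls after LPS were each lost without 4 or 5 of the 6 libraries, with adjusted p up to 0.175, 0.105 and 0.104.

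Of 8 genes of the SREBP machinery and lipoprotein receptors, all tested, none passed in the edgeR test for LPS in WT or 3F (2 and 2 had an unadjusted p under 0.05). In KO 2 of 8 fell, where 26.9% of all tested genes were called. They were Lrp8, a lipoprotein receptor, by 0.71 (adjusted p = 0.0167) and Scap, the escort of SREBP, by 0.58 (0.0136). Lrp8 lost its call without KO resting replicate 2 (-0.55, adjusted p = 0.0964) or KO LPS replicate 1 (-0.69, 0.0557), and Scap without KO resting replicate 1 (-0.51, 0.0645), KO LPS replicate 1 (-0.55, 0.0515) or KO LPS replicate 3 (-0.53, 0.054). List medians of the LPS difference were -0.19 in WT, -0.35 in KO and -0.18 in 3F, and no gene of the list passed between genotypes. The 3F against WT comparisons held no call in any of the 4 lists.

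**Figure D5:**
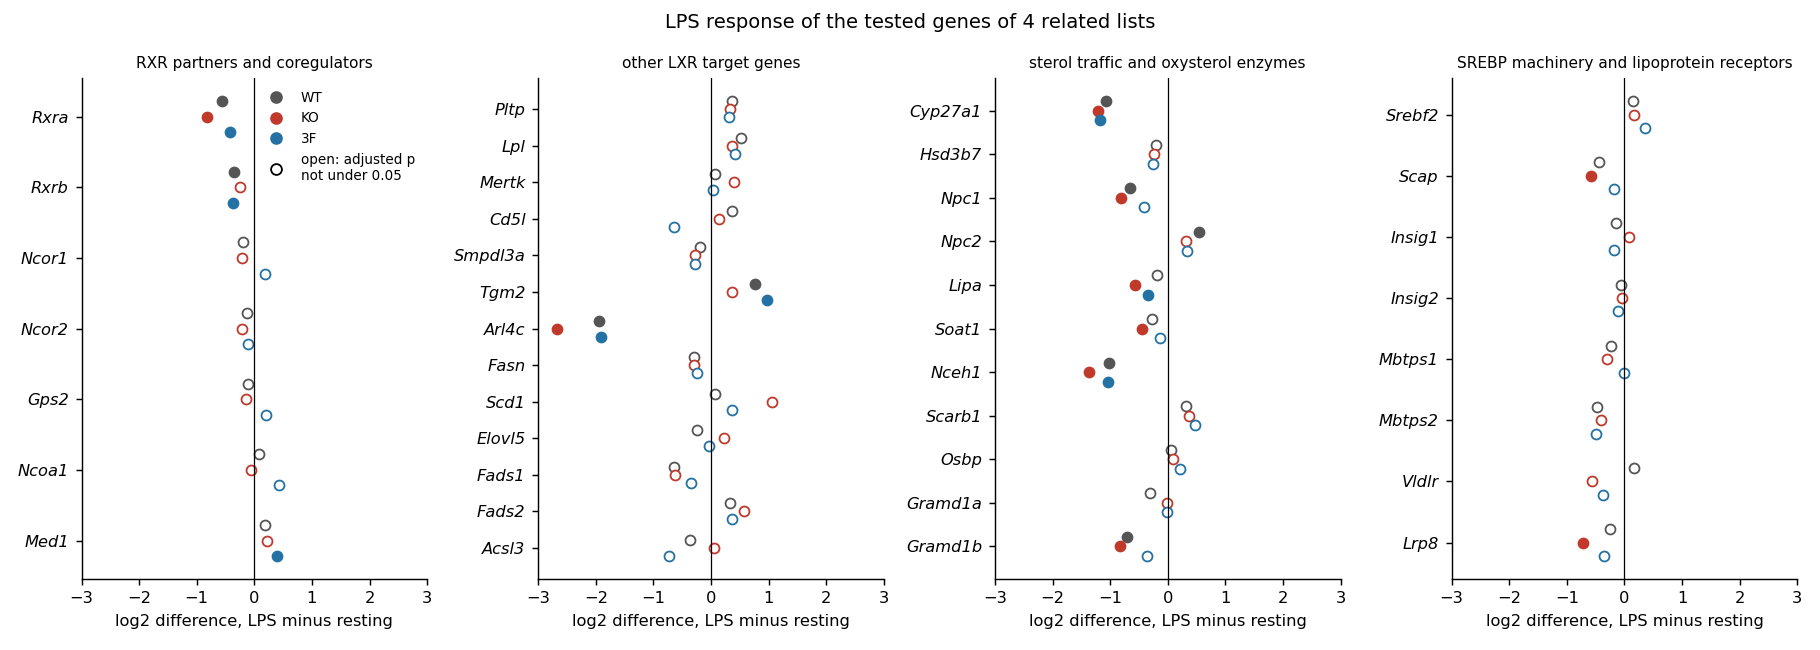
LPS response of the tested genes of the 4 lists, 1 panel per list, as the difference in log2 level between LPS and resting libraries (horizontal axes, all from -3 to 3). Each gene has 1 point for each of WT, KO and 3F, from edgeR, filled where the adjusted p was under 0.05. Arl4c lies furthest to the left, and Rxra is filled to the left of 0 in all 3 genotypes.

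Over the 18 libraries, Nr1h3 and Abca1 had a Pearson correlation of log2 CPM of 0.769, Abca1 and Lpcat3 of 0.742, and Abca1 and Mylip of -0.753. All points share the LPS contrast, the scaling and, by number, possibly the mouse, so these are descriptions. Among the 11347 tested genes outside the 10, those most like Nr1h3 were Bst2 (0.979) and Slfn2 (0.972), and those most like Abca1 were Prdm1 (0.977) and Ifnar1 (0.972). Near Ch25h was Arhgef3 (0.926), and nearest to Nr1h2 were Mapk1ip1l (0.96) and P2ry6 (0.953). Lpcat3 was nearest to Slc25a1 (0.965) and Cfl1 (0.953). Scd2 was nearest to Atf4 (0.915) and Creg2 (0.903), and Mylip to Enc1 (0.93) and Syne3 (0.925). The likeness was lower for Abcg1, with Sass6 (0.84) and Ocel1 (0.823), for Apoe, with Btbd1 (0.806) and Inpp5a (0.804), and for Srebf1, with Olfm1 (0.767). The LXR targets Abca1, Abcg1 and Apoe had no neighbour in common among the 2 nearest genes of each. With only 2 genes taken from 11347, nothing is read from this.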

How the data were processed

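The file the authors deposited gives unnormalised read counts of each protein-coding gene in 18 libraries. Per the labels and the study's methods, the authors depleted ribosomal RNA, made directional libraries, trimmed reads with cutadapt 1.8.3, removed those matching ribosomal DNA, aligned the rest to mm10 with HISAT2 2.1.0 and counted them with featureCounts 1.5.3. Multi-mapped reads and reads of near-identical genes can be lost or split in such counts.

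Here genes were filtered with filterByExpr, scaled by TMM (factors 0.812 to 1.15) and tested with the quasi-likelihood test of edgeR 4.0.16 in R 4.3.3, two-sided, in 1 fit of all 18 libraries with a coefficient per group. The 11 comparisons were the LPS response per genotype, the pairs of genotypes per state and 2 interactions. CPM uses TMM-scaled totals. Errors are the SE of the fit or the SD of 3 libraries. An exact permutation test of 3 libraries against 3 cannot go below p = 0.1, so single-gene tests rest on the fitted model. A chi-square test found no replicate to be a second copy of another. Scripts were tested on simulated counts.

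The members and lists were chosen with earlier results of these data known. All 10 members were named, up to 4 called genes per list and comparison without overlap, and the 2 genes most correlated with each member. Calls outside that rule are counted and not named. Gene positions and exon lengths come from Gencode M21 on GRCm38 (21679 of the gene IDs found, 55 not). The table's own length column equalled the union of exons for 39.1% of genes and was not used. Alternatives were other scalings (DESeq2 size factors, library totals), no filter, a replicate block, the compared groups alone, DESeq2 1.42.0, limma 3.58.1 voom with quality weights, and leaving out each library. Leaving out both KO libraries numbered 3, and recomputing the other pathway genes with that, with each library left out and with library totals, were added after seeing the data. The DR4 tolerance of 3 mismatches also lay outside the plan. Promoter sequences of Abcg1 and Scd2 and protein sequences were not used here. The mature microRNA was not analysed here. Some genes of the lists and of the nearest genes are not reported here.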

Additional observations from a re-analysis of the deposited data

Results flagged for a closer look

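Nr1h2 was noted because its libraries moved in opposite directions with LPS in 2 genotypes. In KO the 3 LPS libraries (45.6 to 52.06 CPM) all lay below the 3 resting ones (52.15 to 59.2 CPM), and in 3F the 3 LPS libraries (49.8 to 55.9 CPM) all lay above the resting ones (28.3 to 47.5 CPM). The log2 response was higher in 3F than in KO by 0.534. This difference was not tested, neither response passed on its own (adjusted p = 0.414 and 0.115), and the gap between the KO states is the distance from 52.06 to 52.15 CPM.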

How the results depend on the processing

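Each of the 110 member results was recomputed under the alternatives, 1730 values in all. Of these 1628 kept the sign and side of the threshold, or changed sign with no call on either side, 65 lost a call, 36 gained one and 1 reversed. The sign changed in 116 values, the reversal included, 68 of them with 1 library left out. The reversal was Abcg1 in the KO LPS response, 0.75 (adjusted p = 0.00876) with limma-voom quality weights against -0.10, and the cause was not tested. Counting members called, the groups compared alone gave 5 for LPS in WT (3 with all libraries), 0 for KO against WT at rest (3), 2 after LPS (1), 0 for KO against 3F at rest (2) and 2 after LPS (1). Quality weights gave 5 for LPS in WT, 7 for LPS in KO (4), 2 for KO against WT and 2 for KO against 3F after LPS, and 1 (Mylip) for the KO interaction. DESeq2 gave 2 for KO against WT after LPS, and library totals alone gave 3 for LPS in 3F (5). Without KO and 3F resting replicate 3, KO against WT and KO against 3F at rest each held 1 call, and without both KO libraries numbered 3 they held 0 and 1. Leaving out each library in turn, the count ran from 2 to 6 for LPS in KO, 0 to 3 for KO against WT at rest, 0 to 2 for KO against 3F at rest, and was 0 throughout for KO against WT and KO against 3F after LPS. In the same order, the calls over all 11357 genes ran over 2154 to 4037, 401 to 1047, 735 to 1818, 185 to 423 and 142 to 312. In the other comparisons the count of members called held within 1.5 times of its value.

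Over all 11357 genes, the groups compared alone called 380 for KO against WT at rest (1067 with all libraries) and 10 for KO against 3F at rest (1464), but 1040 for KO against WT after LPS (544) and 1665 for KO against 3F after LPS (441). Quality weights called 5218, 6073 and 5478 genes for LPS in WT, KO and 3F (3240, 3059 and 3546), and 2259, 1777, 2916 and 1842 for KO against WT at rest and after LPS and KO against 3F at rest and after LPS, with 57 for the KO interaction (1). DESeq2 called 983 for KO against WT after LPS, 801 for KO against 3F after LPS and 15 for the KO interaction. Without KO and 3F resting replicate 3 the calls at rest were 1669 for KO against WT and 745 for KO against 3F. Without both KO libraries numbered 3 they were 712 and 757. Library totals alone called 4348 genes for LPS in 3F. With library totals alone the median log2 LPS difference of all genes was -0.24 in WT, -0.26 in KO and -0.21 in 3F and Mylip was below it in each genotype.

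A replicate block added calls among the LPS responses of the members and ended none of theirs. The labels do not say that a number marks a mouse, and deviations of same-numbered resting and LPS libraries correlated at 0.0283 to 0.318, so the fit without a replicate block was kept. With 3 mice per genotype for 3 libraries in each state, resting and LPS libraries would come from the same mice. This fit leaves that pairing out, so its LPS tests treat such libraries as independent. With the number as a block, Nr1h3 in KO passed for LPS (0.93, adjusted p = 0.025) and counts of members called were 3, 5 and 5 for LPS in WT, KO and 3F. With a term for genotype and number together, Nr1h3 and Ch25h in KO (0.94, 0.0323, and 1.5, 0.0487) and Ch25h and Apoe in 3F (2.84, 0.0489, and -0.82, 0.043) passed as well, giving 3, 6 and 7. No other member call changed under either block. Over all 11357 genes, the number as a block called 3181, 3087 and 3413 for LPS in WT, KO and 3F. The term for genotype and number together called 3040, 3019 and 3323, and the fit without a block 3240, 3059 and 3546. The lowest counts among the members were those of Ch25h, whose WT and 3F resting groups held 5 and 4 counts in all.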
